A study of Rattus norvegicus with 8 samples.

Results

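Early estradiol after ovariectomy was compared with ovariectomy alone in the heart of the old female rat (Norway Brown). The comparison used 4 of the 8 expression arrays of the study, namely the 2 ovariectomy arrays and the 2 early estradiol arrays, chosen by their labels. The rats were 18 to 22 months old. Rats of the early estradiol group received a subcutaneous pellet of 0.5 mg 17-β estradiol, made to release over 90 days, at the same surgery that removed the ovaries, and rats of the ovariectomy group had the surgery with no pellet. The other 4 arrays held sham-operated rats with intact ovaries and rats given the same pellet 9 weeks after ovariectomy (late estradiol), and their levels are given for reference. Equal amounts of RNA from 3 hearts made up the pool on each array, so the spread between the 2 arrays of a group is a spread between pools, which may be technical, and single animals were not measured. Arrays with the same replicate number were paired, as replicate pair 1 and replicate pair 2.

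Estradiol acts through the nuclear receptors Esr1 and Esr2, which bind palindromic estrogen response elements in DNA or join other transcription factors there, and through the membrane receptor Gper1. In the heart its receptors are known from muscle cells, fibroblasts and vessel walls, and it is best known there for raising nitric oxide production by the endothelium. It also acts on cells of the immune system, which reside in the heart muscle or reach it with the blood. In a whole heart, more cells of a type and more RNA per cell cannot be told apart.

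All levels below are log2 signals after quantile normalization over the 8 arrays, and a difference is the mean of early estradiol minus the mean of ovariectomy, given ± the moderated standard error of limma, with n = 2 arrays a group. A difference of 1 is a 2-fold difference. The 2% trimmed mean signal before normalization was 40.5 and 44.2 on the replicate 1 arrays of ovariectomy and early estradiol and 116.3 and 137.5 on their replicate 2 arrays, so brightness went with the replicate number and not with the treatment. The ratio of 3′ to 5′ signal, a sign of RNA quality, lay between 1.26 and 1.65 for Gapdh on these 4 arrays. For actin it was 1.71 and 3.06 after ovariectomy and 2.19 and 2.54 with early estradiol. Late estradiol replicate 1 had ratios of 2.70 and 3.01. Like the other arrays, it enters the normalization and the fit, and so the levels, standard errors and p-values of early estradiol minus ovariectomy. Without the late estradiol arrays, 778 probe sets had an unadjusted p under 0.05 (limma), against 685 with them. Heart muscle genes were at the top of the scale on each array, with Myh7, the slow myosin heavy chain, at 12.92 to 13.22 on these 4 arrays.

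Of 18625 probe sets tested, 0 passed an adjusted p of 0.05 (limma, Benjamini-Hochberg), a share of 0.0%, and the smallest adjusted p was 0.998. An unadjusted p under 0.05 was found for 685 probe sets (3.68%), of which 396 were higher and 289 lower with early estradiol. With each array scaled to the same median instead, 1383 were higher and 170 lower. Every difference named below is therefore a measured value that did not pass the test. Of the 18625 probe sets, 13923 had a single gene symbol. These stood for 10450 genes, each read from its brightest probe set, and the other probe sets enter no count of genes. Of these genes, 1371 (13.1%) had both early estradiol arrays above both ovariectomy arrays, and 1385 (13.3%) had both below. By the mean, 51.3% of all genes were higher, with 50.3% of the bright genes (a mean level of at least 5.72) and 52.9% of the dimmer ones. Groups whose arrays do not overlap in this way are called separate here. The shares of 13.1% higher and 13.3% lower are the reference for every count of separate genes below. Many gene lists below were picked from a larger number because their share was at least 2 times the reference. For those lists a share above the reference follows from the choice, and it is a description without a test.

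The replicate pairs were unlike each other gene by gene. Across the 6502 bright genes the difference in pair 1 and that in pair 2 had the same sign in 50.6% of genes, and their correlation was r = -0.027. This correlation runs across genes, which are not independent of each other. A difference of at least 1.5-fold in both pairs was found for 185 genes in the higher direction (1.77%) and 188 in the lower (1.8%). Among them were 26 bright genes in the higher (0.4% of the bright) and 25 in the lower direction (0.384%). The differences of bright genes ran from -0.42 to 0.43 once the outer 5% at each end were left out. Among the 1045 brightest genes, those at a mean level of 8.95 or more, 1037 differed by less than 1.5-fold.

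**Figure D1:**
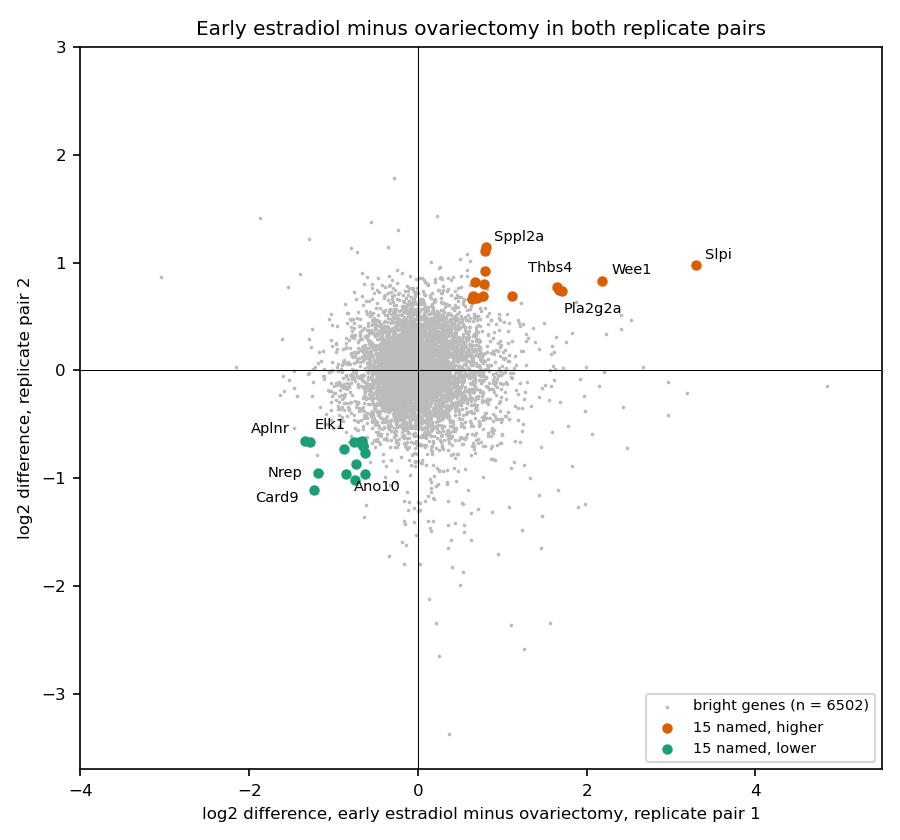
Each point is a bright gene, placed by its log2 difference (early estradiol minus ovariectomy) in replicate pair 1 on the horizontal axis and in replicate pair 2 on the vertical axis. The cloud is round about 0 (r = -0.027), and the 30 genes named for agreement, 15 higher in orange and 15 lower in green, lie in the corners where both pairs have the same sign.

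The bright genes with the best agreement were ranked by the smaller of their differences in the 2 pairs, and the first 15 in each direction are described. They were chosen by this contrast, so their values are a description without a test. The last gene taken in the higher direction had a smaller pair difference of 0.644, against 0.629 for Frzb, the first one left out. In the lower direction the last one taken stood at 0.628 in size, against 0.615 for Rita1, the first one left out.

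Of the 15 higher genes, those of secreted proteins are given first. Pla2g2a (probe set 1368128_at), a secreted phospholipase A2 of the inflammatory response that also kills bacteria, was the brightest of the 15. It read 9.47 and 9.46 on the ovariectomy arrays and 11.15 and 10.20 on the early estradiol arrays, a difference of 1.21 ± 0.22 or 2.31-fold. The sham arrays read 9.46 and 9.22, so the ovariectomy and sham levels nearly met and both early estradiol arrays stood above all 4. Slpi (1367998_at), a secreted inhibitor of neutrophil elastase, read 3.49 and 6.11 after ovariectomy and 6.79 and 7.08 with early estradiol, a difference of 2.14 ± 0.57. Most of that difference came from the low value on ovariectomy replicate 1, since the difference was 3.30 in pair 1 and 0.97 in pair 2. Thbs4 (1388138_at), a thrombospondin of the extracellular matrix, read 4.91 and 6.30 against 6.56 and 7.07, a difference of 1.21 ± 0.40. Spon1 (1370312_at), a secreted adhesion protein of the matrix, read 6.46 and 6.39 against 7.57 and 7.09, a difference of 0.90 ± 0.27.

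The other 11 higher genes follow. Wee1 (1397409_s_at), the kinase that holds back entry into mitosis, read 4.06 and 5.44 after ovariectomy and 6.23 and 6.27 with early estradiol, a difference of 1.5 ± 0.37, but its other probe set differed in the opposite direction and the mean of both gave 0.70. Sppl2a (1383999_at), the protease in the membrane of endosomes that clears the remnant of the MHC class II chaperone Cd74, read 6.62 and 6.24 against 7.43 and 7.39, a difference of 0.98 ± 0.26. Its 3 other probe sets ran from -0.17 to 0.07, and the mean of all of them gave 0.22. Acer2, a ceramidase of the Golgi, read 4.32 and 5.66 against 6.03 and 6.39. Mpp7, a scaffold of cell junctions, read 5.40 and 5.44 against 6.20 and 6.55, and its ovariectomy arrays were the lowest of all 8. C2cd5, which takes part in insulin-driven traffic of glucose transporter vesicles, differed by 0.86 ± 0.39, and Ptprk, a receptor tyrosine phosphatase, by 0.79 ± 0.28. Nlk, a kinase that restrains Wnt signalling, differed by 0.74 ± 0.26, and the mean of all probe sets gave 0.34 for Ptprk and 0.36 for Nlk. The remaining 4 were Prxl2a, a protein related to peroxiredoxins, at 0.73, Fyttd1, an adaptor of mRNA export, at 0.68, and Zbtb22 and Zfx, zinc finger transcription factors, at 0.67 and 0.65.

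Of the 15 lower genes, 4 are given first, which code for receptors or a signalling adaptor. Card9 (1368637_at), the adaptor that carries signals of fungal receptors in myeloid cells, read 6.29 and 7.16 after ovariectomy and 5.05 and 6.06 with early estradiol, a difference of -1.17 ± 0.34. Ptafr (1383372_at), the receptor of platelet-activating factor, read 6.90 and 6.95 against 6.16 and 5.93, a difference of -0.88 ± 0.27, but its other probe set differed in the opposite direction and the mean of both gave -0.07. Aplnr (1379772_at), the receptor of the vasodilator peptide apelin, read 6.51 and 6.78 against 5.17 and 6.12, a difference of -1.0 ± 0.35. Nrp2 (1382995_at), a co-receptor for semaphorins and vascular growth factors, read 6.78 and 6.69 against 6.04 and 5.82, a difference of -0.80 ± 0.27. In each of these 4 genes the lower ovariectomy array stood above the higher early estradiol array, and for Card9 that gap was narrow.

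Of the other lower genes, Ano10 and Nrep had the highest mean levels of the 15. Ano10 (1371738_at), a member of the anoctamin family of ion channels and lipid scramblases, read 8.66 and 9.35 after ovariectomy and 7.80 and 8.38 with early estradiol, and its difference of -0.91 ± 0.17 was close to the same in pair 1 (-0.86) and pair 2 (-0.97). Its sham arrays, at 8.42 and 9.18, lay nearer to ovariectomy. Nrep (1371412_a_at), a small protein linked to TGF-beta signalling, read 7.24 and 7.66 against 6.05 and 6.71, a difference of -1.07 ± 0.24, with sham at 7.21 and 7.83. Elk1 (1388818_at), the factor that joins serum response factor at promoters of immediate early genes, read 7.74 and 6.87 against 6.46 and 6.20, a difference of -0.97 ± 0.26. Sp100, a nuclear body protein that interferon induces, differed by -0.80 ± 0.33, and Slfn4, a schlafen protein of myeloid cells, by -0.80 ± 0.28. Ptpa, an activator of protein phosphatase 2A, stood at -0.68, Mycbp, a partner of Myc, at -0.68, and the coiled-coil proteins Ccdc167 and Ccdc181 at -0.68 and -0.66. Vamp1, a vesicle fusion protein, and Leng1 stood at -0.71 and -0.70, and when all their probe sets were averaged they turned to 0.60 and 0.05.

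**Figure D2:**
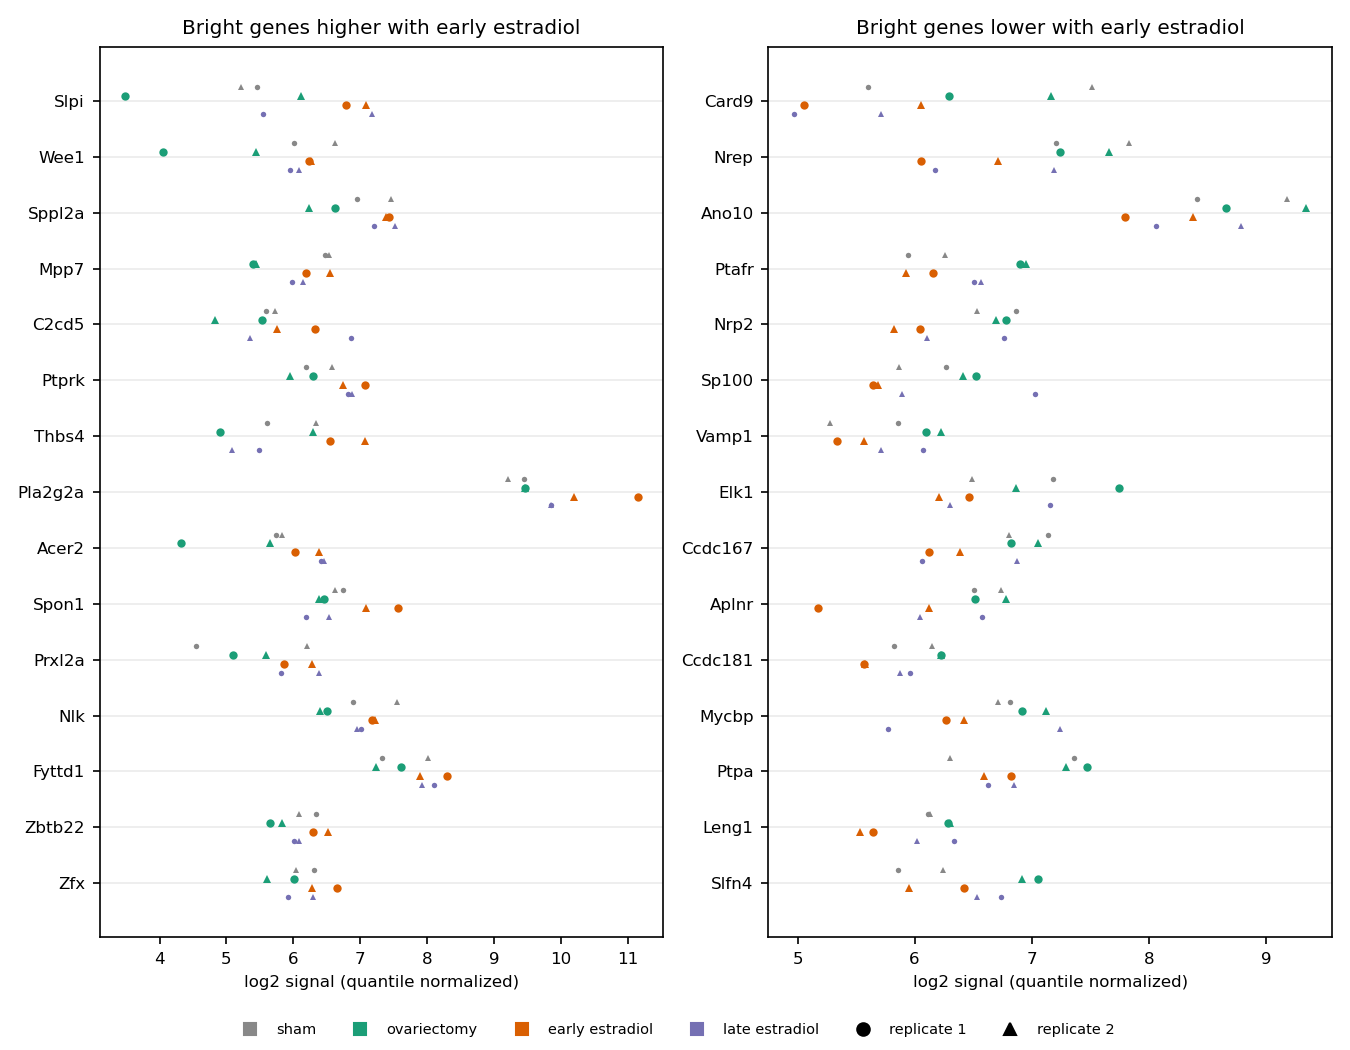
Points give the log2 signal of the 15 bright genes higher (left) and the 15 lower (right) with early estradiol on each of the 8 arrays, coloured by group, with circles for replicate 1 and triangles for replicate 2. Within each gene both early estradiol points lie on the same side of both ovariectomy points, as the choice of these genes requires. Sham points lie near early estradiol for some genes (Mpp7, Wee1) and near ovariectomy for others (Ano10, Nrep).

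The sham arrays gave a reference for these genes. Their mean lay on the early estradiol side of the ovariectomy mean for 14 of the 15 higher genes, with Pla2g2a the exception, and for 13 of the 15 lower genes. With late estradiol, 13 of the 15 higher genes and all 15 lower genes had a mean on the early estradiol side of the ovariectomy mean. The ovariectomy arrays are shared by these comparisons and by the choice of the genes, so the counts are a description. In the comparison of early estradiol with sham, 0 of the 18625 probe sets passed (0.0%, limma), with 303 at an unadjusted p under 0.05. An unadjusted p under 0.05 was found for 3 of the 15 higher and 6 of the 15 lower genes (limma). The difference of Pla2g2a was 1.34 ± 0.22 (limma adjusted p = 0.9997). In the comparison of late with early estradiol, 0 of the 18625 probe sets passed (0.0%, limma), with 1451 at an unadjusted p under 0.05. Here 3 of the 15 higher genes and 1 of the 15 lower, Sp100, had an unadjusted p under 0.05 (limma). The early estradiol arrays enter these counts and the choice of the genes, so these counts are a description too. Thbs4 read 5.49 and 5.09 with late estradiol, below both early arrays, a difference of late minus early of -1.53 ± 0.40 (limma adjusted p = 0.545). Pla2g2a read 9.85 and 9.86 with late estradiol, between ovariectomy and early estradiol, a difference of -0.82 ± 0.22 (limma adjusted p = 0.545). Spon1 read 6.20 and 6.54, a difference of -0.96 ± 0.27 (limma adjusted p = 0.545).

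The promoters of the named genes were read from RefSeq (GRCr8), as 250 bases before to 50 bases after the start, for the 9 higher and 13 lower genes that the table held. The full estrogen response element, searched as GGTCA and TGACC parted by any 3 bases on both strands, occurred in 0 of the 22, against 0.0269% of all 33469 promoters. Its half-site AGGTCA occurred in 0 of the 9 and in 2 of the 13 (Ptafr and Sp100), against 16.2% of all promoters. The cyclic AMP element TGACGTCA occurred in the promoter of Vamp1 (1.83% of all), and the AP-1 element TGANTCA in that of Slfn4 (7.33% of all). The E-box CACGTG was found in Sppl2a and Elk1 (6.42% of all). A fixed form of the CArG box that binds serum response factor, with no variable bases, occurred in 0 of the 22 (0.0329% of all). Other forms of the CArG box were not searched. The full estrogen response element and this form of the CArG box are so rare that 0 of 22 carries no information about these genes. The GC box GGGCGG was found in 7 of the 9 higher and 6 of the 13 lower genes, against 33.1% of all promoters. A gene counted if any of its promoters matched, whereas the share of all counts promoters singly, so these shares are not like for like. A match is a run of letters and was not tested as a binding site.

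The estrogen receptors themselves were too dim to be read. Esr1, Esr2, the progesterone receptor gene Pgr and Greb1, a classical target of Esr1, had mean levels of 1.42, 2.21, 3.26 and 2.95 over the 8 arrays, all under the filter of 3.69. Gper1 passed the filter, with 5.63 and 2.28 after ovariectomy and 4.31 and 3.77 with early estradiol, and its difference was -1.32 in pair 1 and 1.49 in pair 2. Of the 12 receptors and coregulators measured, 2 were separate in the higher and 1 in the lower direction, and 6 of 12 were higher by the mean, with a median difference of 0.04. Nrip1, a corepressor that estradiol induces in other tissues, read 5.33 and 5.20 against 6.01 and 5.72, a difference of 0.59 ± 0.32. Ncor1, a corepressor of nuclear receptors, read 7.44 and 7.42 against 7.80 and 7.81, a difference of 0.38 ± 0.22.

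Of 28 measured genes known to respond to estradiol elsewhere, 21 were higher with early estradiol, with a median difference of 0.18. In the higher direction 8 (28.6%, against 13.1% of all genes) were separate. In the lower direction 4 were separate (14.3%, near the 13.3% of all genes). The median was 0.26 in pair 1 and -0.03 in pair 2, and -0.01 without ovariectomy replicate 1. C3, the central complement protein, which estradiol induces in the uterus, read 4.23 and 4.47 after ovariectomy and 7.39 and 5.65 with early estradiol, a difference of 2.17 ± 0.60. Cxcl12, a chemokine that retains blood progenitors in the bone marrow, read 8.70 and 8.97 against 9.06 and 9.58, a difference of 0.48 ± 0.18. Nos3, the endothelial nitric oxide synthase, read 4.73 and 5.55 against 5.81 and 6.16, a difference of 0.84 ± 0.36. Rara and Tff3, both estrogen-induced in breast cells, went the other way, at -0.58 and -0.61.

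Endothelial markers were higher as a group by a small amount. Of 18 measured genes, 15 were higher with early estradiol, and 7 (38.9%) were separate in the higher direction, against 13.1% of all genes. Their median difference was 0.19, at 0.20 in pair 1 and 0.19 in pair 2, against 0.01 for all genes. By pair, 10 of 18 were higher in pair 1 and 13 in pair 2, and with single arrays left out the median ran from 0.12 to 0.27, without ovariectomy replicate 1 and without early estradiol replicate 1. Vwf, the clotting glycoprotein stored in endothelial cells, read 8.70 and 8.97 after ovariectomy and 9.56 and 9.13 with early estradiol, a difference of 0.51 ± 0.22. Kdr, the main receptor of vascular endothelial growth factor, read 8.93 and 8.55 against 9.09 and 9.17, a difference of 0.39 ± 0.20. Sox18, a transcription factor of endothelial cells, read 5.93 and 7.14 against 6.99 and 7.66, and its groups overlapped. The median of this list with late estradiol against the same ovariectomy arrays was 0.29, and that of early estradiol against sham was 0.08.

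**Figure D3:**
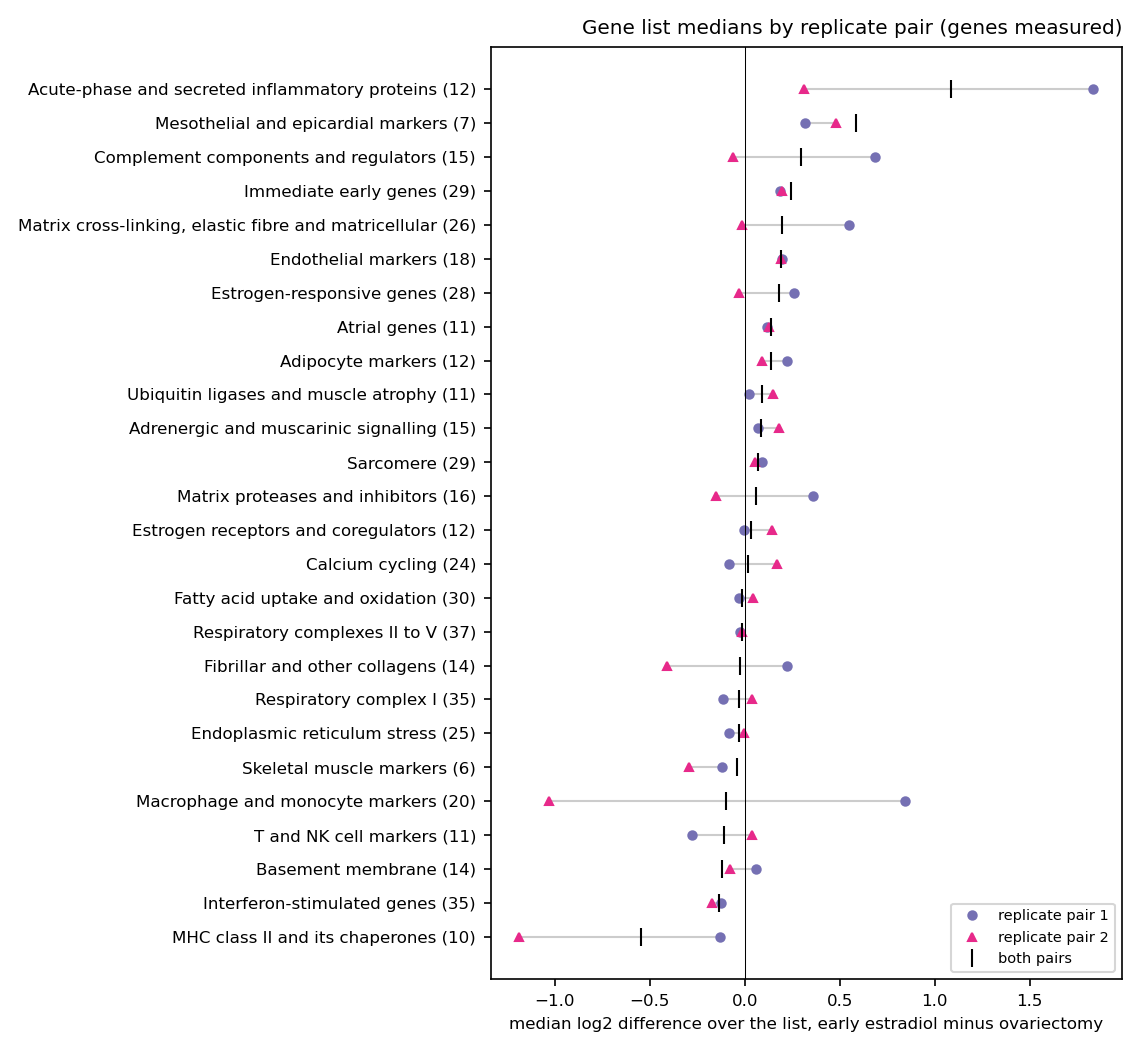
For each gene list, with the number of genes measured in brackets, the circle gives the median log2 difference of its genes in replicate pair 1, the triangle that in pair 2 and the vertical mark that of both pairs together. Secreted inflammatory proteins (1.84 and 0.31), endothelial markers (0.20 and 0.19) and immediate early genes (0.19 and 0.19) were above 0 in both pairs, and macrophage markers (0.84 and -1.03) had opposite signs.

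Acute-phase and secreted inflammatory proteins were mostly higher with early estradiol. Of 12 measured genes, 8 (66.7%, against 13.1% of all genes) were separate in the higher direction and 1 in the lower, and the median difference was 1.09. It was 1.84 in pair 1 and 0.31 in pair 2. S100a9 and S100a8, the subunits of calprotectin released by neutrophils and monocytes, read 4.06 and 5.40 for S100a9 and 3.55 and 4.17 for S100a8 after ovariectomy. With early estradiol S100a9 read 8.19 and 6.03, and S100a8 read 6.60 and 4.94. The differences were 2.38 ± 0.64 for S100a9 and 1.91 ± 0.64 for S100a8, and early estradiol replicate 1 was the highest of all 8 arrays for both. Without that array the list median was 0.62, and without ovariectomy replicate 1 it was 0.41. Against the same ovariectomy arrays, the late estradiol median of this list was 0.27.

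Some red cell and atrial genes were high on early estradiol replicate 1 as well. The neutrophil markers share S100a8 and S100a9 with the secreted proteins above, so their sum is not separate evidence about cells. Of 9 neutrophil markers on the array, 3 passed the filter (S100a8, S100a9 and Lcn2), and Camp and Csf3r, which define the cell, did not, with mean levels of 1.53 and 2.48. The log2 of the summed signal of the 3 was 5.80 and 6.88 after ovariectomy and 8.86 and 7.31 with early estradiol. Slc4a1, the anion exchanger of red cells, read 5.94 on early estradiol replicate 1 and 1.71 on ovariectomy replicate 1, against 4.62 and 4.35 on the replicate 2 arrays, while Hbb stayed between 12.31 and 12.68 on these 4 arrays. The atrial light chain Myl7 read 8.74 on early estradiol replicate 1 and 3.89 on ovariectomy replicate 1, against 5.74 and 5.88 in replicate 2. Myl4, the other atrial light chain, read 8.59 and 6.19 in replicate 1 and 6.97 and 6.58 in replicate 2. Nppa, on the same list, was not highest on early estradiol replicate 1. It read 11.06 and 10.03 in replicate 1 and 11.25 and 11.46 in replicate 2. Of 11 atrial genes measured, 9 were higher with early estradiol and 3 were separate, with a median of 0.14. Late estradiol replicate 1 was high for both light chains too, at 7.53 for Myl7 and 7.50 for Myl4. The part of neutrophils, blood and atrial tissue in the secreted protein values was not tested.

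**Figure D4:**
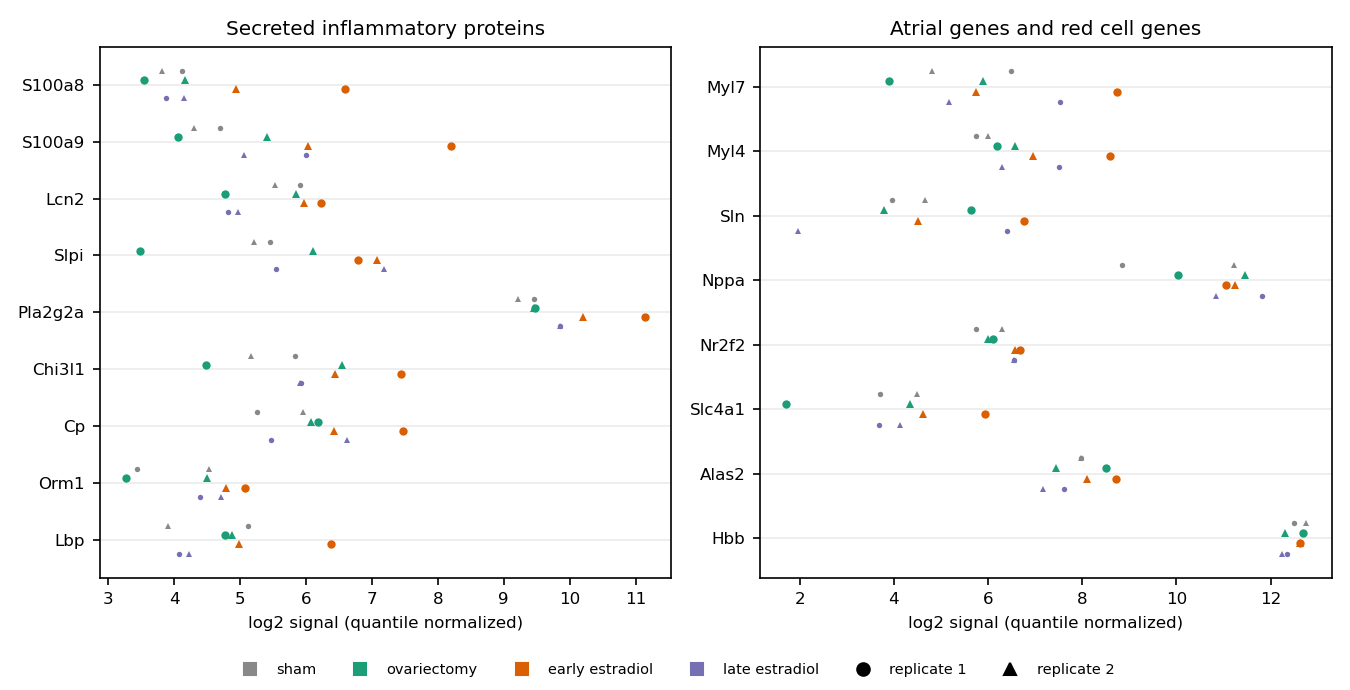
Points give the log2 signal of secreted inflammatory genes (left) and of atrial and red cell genes (right) on each array, coloured by group, with circles for replicate 1 and triangles for replicate 2. Early estradiol replicate 1 was the highest array for S100a8, S100a9, Pla2g2a, Myl7, Myl4 and Slc4a1, whereas its Hbb and Nppa values lay within the range of the other arrays.

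Complement genes had a positive median in pair 1 only. Of 15 measured, 11 were higher, 6 were separate in the higher direction (40%, against 13.1% of all genes) and 3 in the lower (20.0%, against 13.3%). The median was 0.30, with 0.69 in pair 1 and -0.06 in pair 2, and it was 0.07 without early estradiol replicate 1 and 0.11 without ovariectomy replicate 1. C3 is described above. Serping1, the inhibitor of the first complement component, read 8.77 and 8.68 after ovariectomy and 9.45 and 9.06 with early estradiol, a difference of 0.53 ± 0.20. C1qb, a chain of the first component made by macrophages, read 5.52 and 6.58 against 7.13 and 6.75, and C1s, a protease of that component, read 8.93 and 9.30 against 9.76 and 9.40. The differences were 0.89 ± 0.34 for C1qb and 0.47 ± 0.22 for C1s.

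Immediate early genes, which are induced within minutes of a stimulus without new protein synthesis, were mostly higher with early estradiol. Of 29 measured, 23 were higher, 11 (37.9%, against 13.1% of all genes) were separate in the higher direction and 3 (10.3%, against 13.3%) in the lower, and 17 were higher in both pairs. The median difference was 0.24, and 0.39 without early estradiol replicate 2. Egr1, a zinc finger factor, read 6.32 and 6.77 after ovariectomy and 8.14 and 7.11 with early estradiol, a difference of 1.08 ± 0.35. Fos, a partner in the AP-1 factor, read 4.97 and 5.49 against 7.19 and 5.83, a difference of 1.28 ± 0.43. Klf10, a factor that TGF-beta and estradiol induce, read 6.08 and 5.97 against 7.31 and 6.60, a difference of 0.92 ± 0.31. Nr4a1, an orphan nuclear receptor, read 4.19 and 5.93 against 6.85 and 5.96, a difference of 1.35 ± 0.56, and nearly all of it lay in pair 1. The sham arrays of these 4 genes stood between 6.01 and 7.20, above ovariectomy replicate 1 in each gene. Egr2 and Gadd45b, named after their values were seen, were separate in the lower direction, at -0.97 and -0.54.

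Interferon-stimulated genes were lower more often than higher. Of 35 measured, 24 were lower, and 13 (37.1%) were separate in the lower direction against 13.3% of all genes, while 2 were separate in the higher direction. The median difference was small, -0.13, with -0.13 in pair 1 and -0.17 in pair 2, and with single arrays left out it ran from -0.22 (ovariectomy replicate 1) to -0.06 (early estradiol replicate 2). Cxcl11, a chemokine that draws T cells, read 8.14 and 8.03 after ovariectomy and 7.64 and 7.38 with early estradiol, a difference of -0.57 ± 0.22. Ifi44, a cytoplasmic protein with antiviral activity, read 5.53 and 5.94 against 4.17 and 5.40, a difference of -0.95 ± 0.38. Gbp4, a guanylate-binding protein, read 5.20 and 4.44 against 3.89 and 2.97, a difference of -1.39 ± 0.61. Isg20, an exonuclease that degrades RNA, was the exception among the leading genes, with 1.15 and 4.14 against 5.02 and 4.83 and a difference of 2.28 ± 0.84. Its value on ovariectomy replicate 1 lay well under the filter. Without between-array normalization the list median stood at 0.01 and with median scaling at 0.03, and those scalings moved the median of all probe sets from 0.02 to 0.18 and 0.20.

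The core of the interferon-stimulated response element, searched as a pair of GAAA parted by any 2 bases on both strands, was added after the values were seen. Promoters were held for 29 of the 35 genes, and 18 of these genes (62.1%) had the core in any promoter, against 3.92% of all 33469 promoters counted singly. The share was 7 of 11 (63.6%) among genes separate in the lower direction and 11 of 18 (61.1%) among the others, so the letters did not set the lower genes apart within the list. The promoters of 5 lower genes are shown, those with the core nearest to the start of the gene, at -10 to -34 bases. Each is the 100 bases that end just before the start (RefSeq, GRCr8), 5′ to 3′ on the strand of the gene, with the core in capitals in either orientation. They lie at chr2:243303841-243303940 on the minus strand for Ifi44, chr2:233978386-233978485 on the plus strand for Gbp4, chr2:234005627-234005726 on the plus strand for Gbp2, chr6:21941054-21941153 on the plus strand for Eif2ak2 and chr10:33742579-33742678 on the minus strand for Irgm.
Ifi44: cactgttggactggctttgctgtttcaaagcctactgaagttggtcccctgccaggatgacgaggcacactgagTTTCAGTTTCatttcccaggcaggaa
Gbp4: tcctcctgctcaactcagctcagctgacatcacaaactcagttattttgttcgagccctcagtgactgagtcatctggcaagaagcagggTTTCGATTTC
Gbp2: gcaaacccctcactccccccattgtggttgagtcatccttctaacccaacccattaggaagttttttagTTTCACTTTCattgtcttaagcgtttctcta
Eif2ak2: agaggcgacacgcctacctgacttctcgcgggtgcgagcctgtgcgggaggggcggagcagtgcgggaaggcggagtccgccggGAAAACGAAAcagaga
Irgm: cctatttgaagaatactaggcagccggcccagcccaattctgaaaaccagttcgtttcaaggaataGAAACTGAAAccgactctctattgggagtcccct

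MHC class II genes, which present peptides of ingested proteins to helper T cells, were lower by the mean with early estradiol in 10 of 10 measured. Of these, 3 (30.0%, against 13.3% of all genes) were separate. By pair, 6 of 10 were lower in pair 1 and 9 in pair 2, and 5 were lower in both. The median difference was -0.55, but it was -0.13 in pair 1 and -1.19 in pair 2. RT1-DMa, a chaperone that loads the peptides, read 6.29 and 6.08 after ovariectomy and 5.56 and 4.92 with early estradiol, with sham at 5.22 and 4.99. RT1-Ba, the alpha chain of a presenting molecule, read 8.61 and 9.51 against 8.63 and 7.71, and its beta chain RT1-Bb read 6.75 and 7.01 against 6.61 and 5.39. Cd74, the invariant chain, read 10.46 and 10.98 against 10.24 and 10.52, a difference of -0.34 ± 0.14. Without ovariectomy replicate 2 the list median was -0.21. Class I genes had a median of -0.11, with 4 of 17 (23.5%, against 13.3% of all genes) separate in the lower direction and 1 (5.88%, against 13.1%) in the higher.

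Macrophage markers were high on the same array. Of 20 measured, 8 were higher and 12 lower, with a median of 0.84 in pair 1 and -1.03 in pair 2. The log2 of their summed signal was 11.04 and 13.11 on the ovariectomy arrays, 11.87 and 11.59 with early estradiol and 10.79 to 11.44 on the other 4 arrays, so ovariectomy replicate 2 was the highest of the 8. Spp1, osteopontin, read 0.95 and 11.21 after ovariectomy and 6.88 and 4.85 with early estradiol. Gpnmb, a glycoprotein of lipid-laden macrophages, read 7.18 and 10.69 against 7.55 and 7.32. The part of macrophage number in the MHC class II values was not tested.

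**Figure D5:**
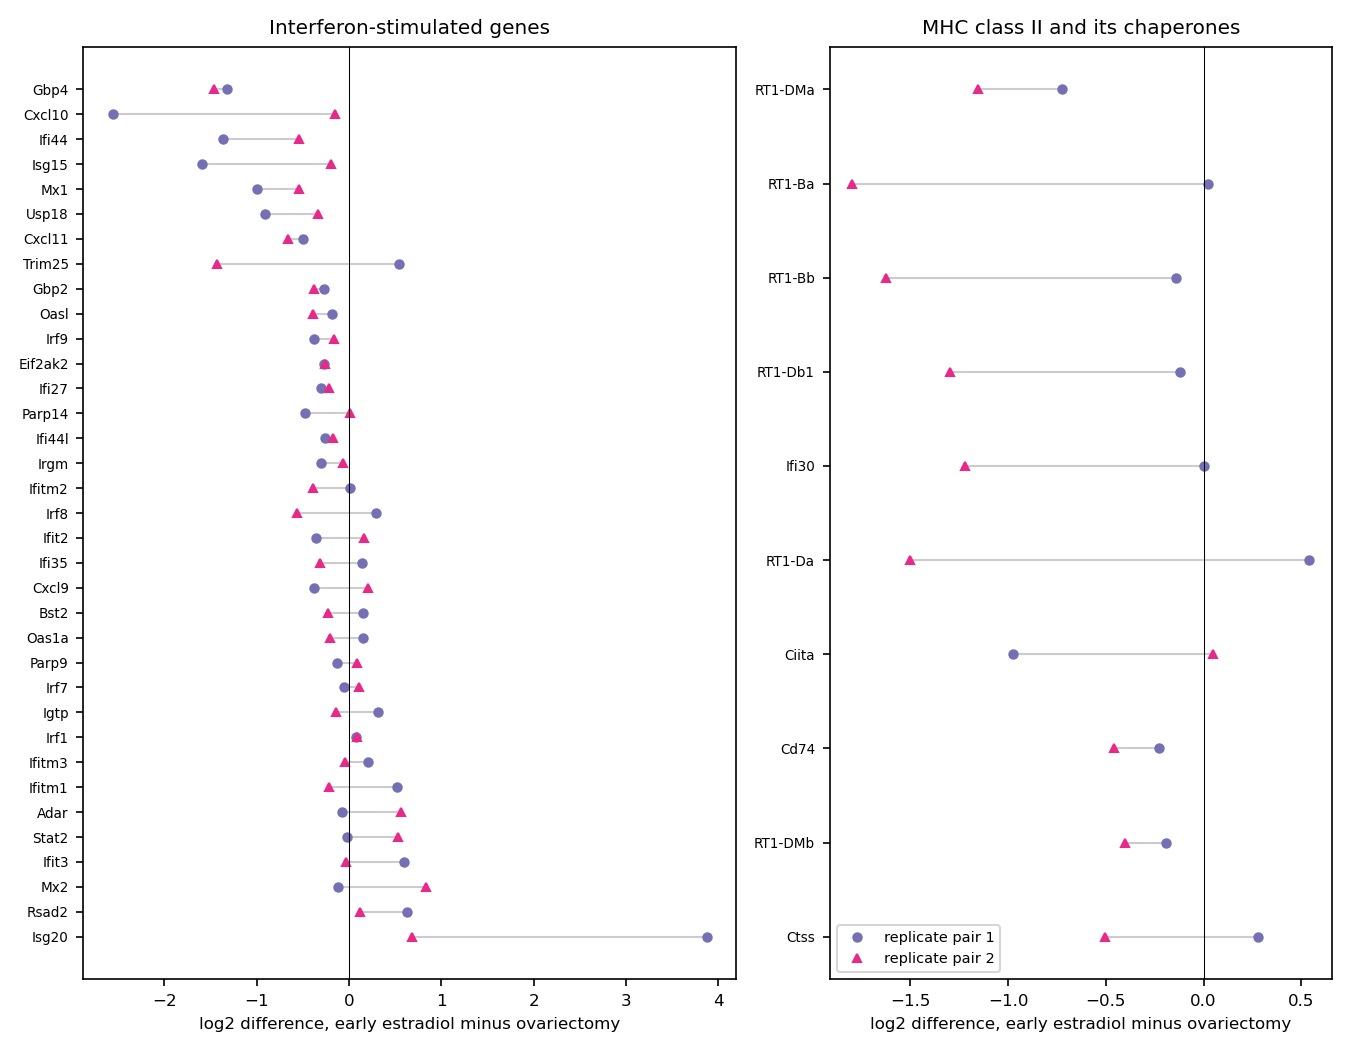
For each measured interferon-stimulated gene (left) and MHC class II gene (right), the circle gives the log2 difference, early estradiol minus ovariectomy, in replicate pair 1 and the triangle that in pair 2, joined by a line. The interferon genes had similar list medians in both pairs (-0.13 and -0.17), whereas MHC class II differences were larger in pair 2 (-1.19) than in pair 1 (-0.13).

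The collagen list had no common direction by the mean, with 7 of 14 genes higher and a median of -0.02. The median was 0.22 in pair 1 and -0.41 in pair 2. It was -0.33 and 0.25 without early estradiol replicate 1 and 2, and -0.22 and 0.12 without ovariectomy replicate 1 and 2. In the lower direction 4 (28.6%, against 13.3% of all genes) were separate, and in the higher direction 2 (14.3%, against 13.1%). Col3a1, the fibril-forming collagen of type III, read 10.59 and 10.64 after ovariectomy and 10.21 and 9.75 with early estradiol, a difference of -0.63 ± 0.17, and sham stood at 9.91 and 9.74. Col15a1, a collagen beside basement membranes, read 7.93 and 8.24 against 7.52 and 7.40, a difference of -0.63 ± 0.22. Col16a1 and Col5a3 differed in the higher direction, by 0.76 and 1.48, and for Col5a3 the groups overlapped. Late estradiol was lower still for Col3a1, at 8.81 and 8.98, and the list median against the same ovariectomy arrays was -0.86 with late estradiol. Basement membrane genes had a median of -0.12, with 3 of 14 separate in the lower and 1 in the higher direction.

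Cross-linking, elastic fibre and matricellular genes were higher in 19 of 26, with 4 separate in the higher direction (15.4%, near the 13.1% of all genes) and 0 in the lower. Their median was 0.19, at 0.55 in pair 1 and -0.02 in pair 2, and it was -0.003 without early estradiol replicate 1 and 0.03 without ovariectomy replicate 1. Thbs4 led the list, followed by Fmod, a proteoglycan that binds collagen fibrils, at 0.71, and Fbln5, which helps assemble elastic fibres, at 0.68. Ccn2, a growth factor of the matrix that TGF-beta induces, read 8.27 and 9.09 after ovariectomy and 9.83 and 8.82 with early estradiol, and its groups overlapped. Of 16 matrix proteases and inhibitors, 3 were separate in the higher and 1 in the lower direction. Plat, the tissue plasminogen activator, stood at 0.56 and Timp2, which blocks matrix metalloproteinases, at -0.26.

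Genes of the contractile apparatus had a median close to 0. Of 29 sarcomere genes, 20 were higher, with a list median of 0.07. In the higher direction 5 (17.2%, against 13.1% of all genes) were separate, and in the lower direction 2 (6.9%, against 13.3%). Myh6, the fast myosin heavy chain, differed by -0.03 ± 0.11 and Myh7 by 0.10 ± 0.12. The other probe set of Myh6 differed by 0.23 and that of Myh7 by 0.60. Acta1, an actin of skeletal muscle and of the heart before birth, read 11.86 and 12.25 after ovariectomy and 11.64 and 11.61 with early estradiol, a difference of -0.43 ± 0.20, and sham stood at 11.33 and 11.26. Tcap, the titin cap of the Z-disc, read 11.37 and 11.55 against 11.69 and 11.73, a difference of 0.25 ± 0.12. The natriuretic peptides, which the strained heart secretes, differed by 0.41 ± 0.56 for Nppa and -0.02 ± 0.15 for Nppb.

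Calcium cycling genes had a median of 0.02, with 0 of 24 separate in the higher and 2 in the lower direction. Ryr2, the calcium release channel, read 11.64 and 11.07 after ovariectomy and 11.77 and 11.63 with early estradiol, a difference of 0.34 ± 0.13, and its other probe set differed in the opposite direction. Atp2a2, which pumps calcium back into its store, differed by 0.01 ± 0.11, and its 4 other probe sets ran from -0.79 to 0.10. Adrenergic and muscarinic signalling genes, which set the rate and force of the beat, were higher in 12 of 15, with 6 (40%, against 13.1% of all genes) separate in the higher direction and 0 in the lower. By pair, 8 of 15 were higher in pair 1 and 14 in pair 2. Their median was 0.09, and with single arrays left out it ran from 0.0066 without early estradiol replicate 2 to 0.33 without ovariectomy replicate 1. Rgs2, a brake on G protein signalling, read 8.11 and 7.40 against 8.46 and 8.14, a difference of 0.54 ± 0.25. Adcy5, the adenylate cyclase of heart muscle, read 7.29 and 7.66 against 7.82 and 7.80, a difference of 0.34 ± 0.24. Pde4b, a phosphodiesterase that breaks down cyclic AMP, read 7.17 and 6.83 against 7.24 and 7.45.

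Medians close to 0 were also found for energy metabolism. Complex I of the respiratory chain had a median of -0.03 over 35 genes, with 2 separate in the higher and 5 in the lower direction. Complexes II to V had a median of -0.02 over 37 genes, with 0 separate in the higher and 6 in the lower direction. Fatty acid genes had a median of -0.01 over 30 genes, with 2 and 3 separate. Ppargc1a, a coactivator that drives mitochondrial genes, differed by 0.13 ± 0.22, and its other probe set by 0.72. The largest of these differences by size lay at Cox5a, a subunit of cytochrome oxidase, at -0.66, of which -0.05 came from pair 1 and -1.27 from pair 2. Among the genes of smallest p, Acsl1, which activates fatty acids, stood at 0.21 and Hadh, an enzyme of beta oxidation, at -0.26.

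Genes of endoplasmic reticulum stress, which act on misfolded proteins, had a median of -0.03 over 25 genes. Of these, 7 (28.0%, against 13.3% of all genes) were separate in the lower direction and 0 in the higher (13.1% of all genes). Dnajc3, a chaperone that restrains the kinases of this response, read 6.97 and 6.68 after ovariectomy and 6.45 and 6.17 with early estradiol, a difference of -0.51 ± 0.27 that was the same in both pairs. Creld2, a chaperone that this stress induces, stood at -0.41. Eif2ak3, the kinase that slows translation under this stress, stood at -1.15, with -2.58 in pair 1 and 0.28 in pair 2.

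Smaller marker lists gave mixed values. Of 7 mesothelial and epicardial markers, 5 were higher and 3 (42.9%, against 13.1% of all genes) were separate in the higher direction. The list median was 0.59, and 0.35 without ovariectomy replicate 2. C3 belongs to this list too, and Wt1, a defining transcription factor of the epicardium, stood at 0.32. Of 12 adipocyte markers, 6 (50.0%, against 13.1% of all genes) were separate in the higher and 2 in the lower direction. Their median was 0.14, and 0.06 without either early estradiol array. Cfd, the protease adipsin, read 5.49 and 5.83 after ovariectomy and 6.71 and 6.00 with early estradiol. Cidea, a protein of lipid droplets, read 9.47 and 9.48 against 9.13 and 9.10. T and NK cell markers had a median of -0.11, with 3 of 11 (27.3%, against 13.3% of all genes) separate in the lower direction and 1 in the higher. Zap70, a kinase of the T cell receptor, led them at -0.80. Skeletal muscle markers had a median of -0.04, with 2 of 6 (33.3%, against 13.3% of all genes) separate in the lower direction and 0 in the higher. Of 11 ubiquitin ligase and atrophy genes, 3 (27.3%, against 13.1% of all genes) were separate in the higher direction and 2 (18.2%, against 13.3%) in the lower. Foxo1, a factor that drives atrophy genes, stood at -1.0 with -0.16 in pair 1 and -1.84 in pair 2.

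Among the 1045 brightest genes, 8 differed by at least 1.5-fold. Besides Pla2g2a, Col3a1 and Ccn2 these were Pdlim5, a Z-disc adaptor, Tma7, Dnajb6, a chaperone, Perm1, a regulator of muscle mitochondria, and Nipsnap2. Pdlim5 read 10.49 and 10.13 after ovariectomy and 11.04 and 10.78 with early estradiol, a difference of 0.60 ± 0.19, and its other probe set differed in the opposite direction. Tma7 read 9.76 and 10.19 against 9.37 and 9.20, a difference of -0.69 ± 0.19. Perm1 read 9.19 and 9.76 against 9.21 and 8.46, and its groups overlapped.

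Dim genes gave larger differences with larger errors. The median standard error was 0.523 over the 3948 dimmer genes and 0.249 over the bright ones. A difference of at least 1.5-fold in both pairs was found for 159 dimmer genes in the higher direction (4.03%) and 163 in the lower (4.13%). The 5 leading higher ones were Reg3g, a lectin that kills bacteria, at 2.20 ± 0.96, Sinhcaf, a subunit of a histone deacetylase complex, at 2.25 ± 0.46, Iqcb1, a protein of cilia, at 2.17 ± 0.72, Abcg2, a drug efflux pump, at 2.11 ± 0.75, and Cpt1c, a relative of the carnitine transferases, at 1.88 ± 0.68. The 5 leading lower ones were Dxo, an enzyme that removes faulty mRNA caps, at -3.07 ± 0.82, Pde6g, a phosphodiesterase subunit, at -2.75 ± 0.70, Gata3, a factor of T helper cells, at -2.17 ± 0.75, Nmb, the peptide neuromedin B, at -2.10 ± 0.76, and Rnf19b, a ubiquitin ligase, at -2.01 ± 0.59. Gata3 read 4.37 and 4.17 after ovariectomy and 2.09 and 2.12 with early estradiol, with 5.44 and 4.22 with late estradiol. The early estradiol values of all 5 lower genes lay at or under 3.77, close to or below the filter of 3.69 (Dxo was at 3.77 on replicate 2). Likewise, the ovariectomy values of Sinhcaf, Cpt1c, Abcg2 and Iqcb1 lay at or under 3.24, below the filter.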

How the data were processed

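The deposited values were linear signal intensity, 1 per probe set and array, made by the authors with MAS5 per the submitters' processing notes. Detection calls were not used. Of 31099 probe sets, 57 controls were left out. Log2 values were quantile normalized over all 8 arrays, and the 18625 of 31042 probe sets whose mean reached the 40th percentile entered the test. Of the 31042, 20826 had 1 symbol, 436 several and 9780 none, and 20758 matched RefSeq genes (GRCr8). Group means with the replicate number as a block were fitted in limma 3.58.1 (R 4.3.3) with an intensity trend, leaving 3 residual degrees of freedom, and adjusted by Benjamini-Hochberg at 0.05, two-sided. The number of arrays limits the precision. The rule of the comparison pairs arrays by replicate number, and replicate 2 minus replicate 1 differences correlated between groups at r = 0.277 to 0.331 over probe sets. The fit was tested on simulated data. Bright genes are those at or above the 70th percentile. The text names 15 bright and 5 dimmer genes each way, separate between groups and ranked by the smaller pair difference, up to 4 members of smallest p of each described list, and preset heart and estrogen genes; others were chosen after their values were seen. Described lists are those with at least 5 measured genes and a share of separate genes at least 2 times that of all genes in a direction, plus preset ones. More lists were screened than are described, so the shares of lists that met this rule are no test. Members and lists were chosen with earlier results of these data known. Motifs were searched in 33469 RefSeq promoters. Alternatives covered scaling, filter, added constant, block, trend, probe sets and left-out arrays.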

Additional observations from a re-analysis of the deposited data

How the results depend on the processing

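No probe set passed under the alternatives run, which changed the scaling, the filter, the constant added before the log, the block, the trend or the arrays used. With the replicate block 0 probe sets passed and with no replicate block 0 passed, with 685 and 318 at an unadjusted p under 0.05. With 1 array left out the smallest adjusted p was 0.0512 to 1 (limma), and leaving out ovariectomy replicate 2 gave 0.0512. Scaling moved the median difference of all probe sets from 0.02 to 0.18 without between-array normalization and to 0.20 with median scaling. Genes separate in the higher direction numbered 168 without normalization, and those in the lower direction 231 without it and 493 with median scaling, where the higher ones numbered 1507. Genes past 1.5-fold in both pairs in the higher direction numbered 341 without normalization, 380 with median scaling, 539 without a filter, 56 above the 60th percentile, and 50 and 11 with 16 and 32 added before the log. In the lower direction they numbered 681 without a filter, 55 above the 60th percentile, and 54 and 10 with 16 and 32 added. Counted over combinations of gene and setting, the 15 bright higher genes kept their direction in 240 of 240. The 15 lower genes kept it in 238 of 240, the exceptions being Vamp1 (0.60) and Leng1 (0.055) with all probe sets averaged. Both sets were chosen as separate between groups with large differences in both pairs, which leaves little room for a reversal. Changing the block, the trend or the filter left their differences the same. The counts for these chosen genes are therefore a description without a test. Genes close to 0 turned over. With all probe sets averaged Myh6 stood at 0.10 and Atp2a2 at -0.16. Gper1 stood at -0.18 with 16 or 32 added. Without normalization and with median scaling Nppb stood at 0.11 and 0.13 and Atp2a2 at -0.11 and -0.088, and without the late estradiol arrays Atp2a2 stood at -0.00022. With single arrays left out, Gper1 ran from -0.85 to 0.99, Myh6 from -0.064 to 0.0014, Nppa from -0.028 to 0.86, Nppb from -0.15 to 0.11, Atp2a2 from -0.10 to 0.11 and Ppargc1a from -0.094 to 0.34. The medians of the interferon, collagen, basement membrane, endoplasmic reticulum stress, T and NK cell, skeletal muscle, complex I and fatty acid lists were above 0 without normalization and with median scaling. With 1 array left out the median changed sign for the cross-linking (-0.003), ubiquitin ligase (-0.012), T and NK cell (0.074), endoplasmic reticulum stress (0.0055), estrogen-responsive (-0.012) and collagen lists, and for the calcium, estrogen receptor, fatty acid, complex I and matrix protease lists. The causes were not tested. Dim genes carry the larger errors, and detection calls were not used, so signal over background is not known for them.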
